A study of Caenorhabditis elegans with 2 samples.

Results

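The splicing factor and snRNP protein genes described here are the protein-coding genes of the WBcel235 annotation whose symbol begins with snr-, lsm-, prp-, mog-, snrp-, rnp-, rsp-, uaf-, sftb- or sap-. These 10 prefixes gave 62 of the 19973 nuclear protein-coding genes. The question was which of them carried the zinc finger protein Y56A3A.18 (znf-593) near their start. Chromatin immunoprecipitation followed by sequencing (ChIP-seq) had been done on whole young adult Caenorhabditis elegans aged 63 h, in 2 biological replicates that form 1 group. All animals were of strain RW12265, allele st12265, in which CRISPR editing placed a TY1::EGFP::3xFLAG tag at Y56A3A.18 itself, and an anti-GFP antibody was used. They had been synchronised by bleaching and L1 starvation, and every sample carries the tag. The control that the labels mention was not analysed here. Whole animals were used, so the signal pools all tissues, and a weak peak in every cell cannot be told apart from a strong peak in a few. No read counts were used and the depth is unknown.

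Splicing removes introns from pre-mRNA on the spliceosome, a machine of small nuclear ribonucleoproteins (snRNPs), each an RNA with its proteins. Sm proteins form a ring around the U1, U2, U4 and U5 RNAs, and LSm proteins form a related ring on U6. PRP proteins and DEAH-box helicases assemble and remodel the machine, and SR proteins help to choose the splice sites. In nematodes the same machinery also joins a spliced leader to the start of many mRNAs, including those from operons, where several genes are transcribed together.

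A gene was called bound when a peak summit of the authors' conservative list lay from 1000 bp upstream to 500 bp downstream of the 5' end of its gene model. That list holds 1687 peaks of both replicates together, filtered by IDR, the irreproducible discovery rate, a measure of how repeatably peaks are ranked. By this rule 7 of the 62 splicing genes (11.3%) were bound, against 777 of all 19973 protein-coding genes (3.89%). They were mog-4, snr-4, lsm-8, prp-19, rsp-1, rsp-2 and rsp-4, and their windows held 9 conservative summits. The other 55 were not bound. No set test was run, and the shares are a description.

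The bases around the summits of these bound genes are shown because they are where the signal was strongest. Each run reaches 50 bp to each side of the summit unless it was shortened to keep out a UTR, is read 5′ to 3′ on the gene's own strand from the WBcel235 (ce11) RefSeq genome, and has its CG dinucleotides in capitals. The run of mog-4 is chrII:14561820-14561920 (minus strand), that of snr-4 is chrV:11980038-11980138 (minus strand) and that of prp-19 is chrIII:5172630-5172719 (minus strand). The run at rsp-1, which rsp-2 reads on the other strand, is chrII:11453181-11453281 (plus strand). That of rsp-4 is chrII:5388313-5388413 (minus strand). The run of lsm-8 is chrIV:6326456-6326525 (plus strand), at the weaker of its 2 summits, since the stronger lies in a 3'UTR.
mog-4: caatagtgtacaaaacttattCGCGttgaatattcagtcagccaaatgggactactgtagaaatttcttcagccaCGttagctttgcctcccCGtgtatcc
snr-4: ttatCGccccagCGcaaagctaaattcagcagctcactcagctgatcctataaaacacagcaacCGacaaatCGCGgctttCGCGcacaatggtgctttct
prp-19: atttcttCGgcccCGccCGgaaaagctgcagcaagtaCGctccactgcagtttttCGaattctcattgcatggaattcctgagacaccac
rsp-1: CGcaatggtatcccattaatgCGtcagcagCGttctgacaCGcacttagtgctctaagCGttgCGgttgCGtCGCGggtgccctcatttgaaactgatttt
rsp-4: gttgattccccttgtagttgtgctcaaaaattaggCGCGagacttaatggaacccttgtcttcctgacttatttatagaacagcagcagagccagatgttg
lsm-8: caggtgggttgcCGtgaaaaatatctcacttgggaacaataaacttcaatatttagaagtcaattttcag
These runs held between 1 CG at lsm-8 and 9 at rsp-1 and rsp-2. In the full 101 bp around each of the 9 summits the median was 3 CG dinucleotides (range 2 to 9) and 42.6% G and C. Of these summits 3 are at snr-4 and 2 at lsm-8, so weaker summits of the same gene weigh on the median. In these 101 bp the strongest summit had 4 CG at mog-4, 7 at snr-4, 3 at lsm-8 and 6 at prp-19. The summit shared by rsp-1 and rsp-2 had 9, and that of rsp-4 had 2. The 702 conservative summits in windows of protein-coding genes had medians of 6 CG and 46.5%. Windows of the same size centred 250 bp upstream of every protein-coding start had medians of 3 CG and 33.7%.

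The signal given below is the authors' value per peak, a strength of enrichment on an unstated scale. Each replicate also has its own ranked list, of 51496 peaks in replicate 1 and 52336 in replicate 2, which reaches down to weak peaks. A replicate value given at a conservative peak is that of the strongest ranked summit within 150 bp of its summit, which need not be the nearest. The conservative signal is a joint value of the replicates and not their mean.

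**Figure D1:**
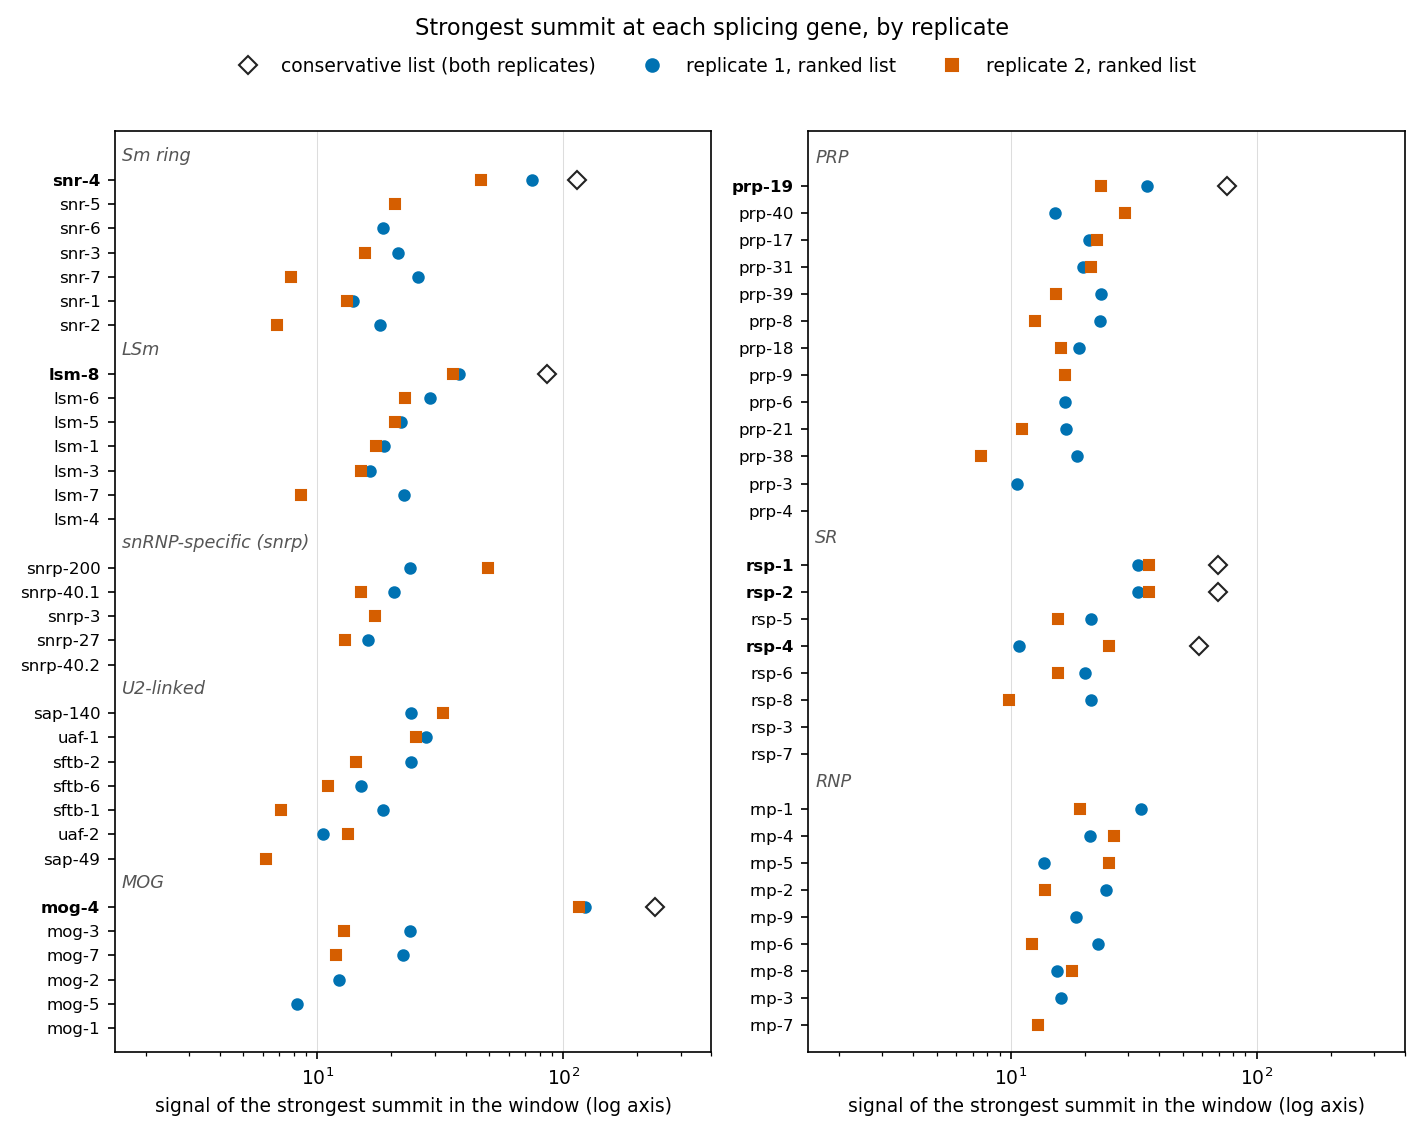
Signal of the strongest summit in the window of each of the 62 splicing genes (log axis, authors' units), by class, with blue circles for replicate 1, orange squares for replicate 2 and open diamonds for the conservative list. The bound genes are in bold, and mog-4, at 236.4 in the conservative list, stands furthest right; a gene with no marker had no summit in either replicate's ranked list.

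The signal was highest at mog-4, a DEAH-box RNA helicase of the spliceosome that the germline needs for the switch between sperm and oocytes. The gene lies at II:14552504-14561599 on the minus strand. Its peak, at II:14561806-14561912, had a conservative signal of 236.4 and rank 25 of 1687. The signal was 121.9 in replicate 1 and 115.4 in replicate 2, a mean of 118.7 ± 4.59 (SD, n = 2). Both replicates placed the summit within 1 bp of the conservative one, 271 bp upstream of the 5' end in intergenic sequence, with no other protein-coding window there. The peak was also past the threshold in each replicate's own thresholded list, at rank 33 of 817 in replicate 1 and rank 16 of 754 in replicate 2. No other splicing gene stood as high in either replicate.

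The remaining 5 MOG genes were not bound. Of these, mog-3, mog-7, mog-2 and mog-5 had a summit in at least 1 ranked list, the strongest being 23.7 at mog-3 in replicate 1. For mog-1, another DEAH-box helicase of the same germline switch, no summit was listed in the ranked list of either replicate or of both together. Bound genes were picked by peaks called on these same replicates, so their standing above unbound genes follows from that choice and is given as a description.

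Among the 7 Sm ring genes, snr-4 (SmD2; V:11978508-11979723, minus strand) was bound, with 3 conservative summits. The strongest, at V:11979938-11980237, had a signal of 113.5 and rank 210. It measured 74.6 in replicate 1 and 46.4 in replicate 2, a mean of 60.5 ± 19.9 (SD, n = 2). Both replicates were high, with replicate 1 the higher, and the peak passed the threshold in each replicate's own list.

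That strongest snr-4 summit lay 365 bp upstream of snr-4, in the exon of the noncoding RNA gene C52E4.14 and 30 bp before the 5' end of the snRNA gene WBGene00014291 (symbol T11F9.15), at V:11980118-11980261 on the plus strand. That snRNA symbol is carried by a second gene elsewhere on chromosome V, so reads could be shared between the copies. Whether the peak belongs to snr-4 or to the noncoding genes cannot be told apart. A second summit, of signal 46.9 and 565 bp upstream, also lay within 200 bp of the snRNA gene.

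The farthest snr-4 summit, 772 bp upstream and next to the end of the proteasome gene rpt-1 (V:11980534-11982397, minus strand), has its peak at V:11980345-11980644 and ranked 1671 of 1687 with a conservative signal of 4.55. Its matching replicate summits were higher, at 32.8 in replicate 1 and 26.6 in replicate 2, a mean of 29.7 ± 4.41 (SD, n = 2), and the same replicate summits also matched the second peak. With summits within 200 bp of tRNA, snRNA or snoRNA genes left out, snr-4 stayed bound through this summit alone. In all, 7 splicing genes (11.3%) were then bound, against 3.32% of all protein-coding genes. In replicate 1 the matching summit, 713 bp upstream, did lie within 200 bp of the snRNA gene. The unchanged count thus depends on where this cut falls, and it does not separate snr-4 from the snRNA gene.

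The other 6 Sm genes, which complete the ring with snr-4, were not bound. Their signals ran from 13.9 at snr-1 to 25.6 at snr-7 in replicate 1 and from 6.86 at snr-2 to 20.7 at snr-5 in replicate 2. For snr-5 no summit was listed in replicate 1, and for snr-6 none in replicate 2.

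Of the 7 LSm genes, lsm-8 (IV:6326526-6329472, plus strand), a subunit specific to the nuclear ring on U6 RNA, was bound with 2 summits. The stronger peak, at IV:6325823-6326122, had signal 85.6 and rank 514, with 37.8 in replicate 1 and 35.6 in replicate 2, a mean of 36.7 ± 1.55 (SD, n = 2). It lay 553 bp upstream, in the 3'UTR of sqd-1, a neighbour on the same strand that ends 104 bp before lsm-8. The replicate summits matched to it lay on opposite sides of the conservative one. That of replicate 1 was 109 bp away, 444 bp upstream of lsm-8, and that of replicate 2 was 53 bp away, 606 bp upstream. The 2 values therefore come from different places.

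The weaker lsm-8 peak lay 20 bp upstream of the 5' end and had signal 47.2 and rank 1501. It measured 30.02 in replicate 1 and 31.8 in replicate 2, a mean of 30.9 ± 1.24 (SD, n = 2). Both lsm-8 peaks had close replicate values, though at the stronger one these belong to summits at different places. Neither peak passed the threshold of a single replicate's list.

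Among the 6 unbound LSm genes, lsm-6 had a strongest signal of 28.8 in replicate 1 and 22.6 in replicate 2, and lsm-5 had 21.9 and 20.6 in the same order. Both are among the 5 splicing genes that ranked highest in both replicates once the genes in any thresholded list were set aside. For lsm-4 neither replicate listed a summit. The others, lsm-1 (which acts in cytoplasmic mRNA decay), lsm-3 and lsm-7, had signals of 16.4 to 22.5 in replicate 1 and 8.56 to 17.3 in replicate 2.

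The PRP genes number 13, and 1 was bound. Its peak, at III:5172530-5172829, lay 635 bp upstream of prp-19 (III:5169933-5172045, minus strand), a core subunit of a ubiquitin ligase complex of the spliceosome, with signal 76.1 and rank 734. It measured 35.9 in replicate 1 and 23.2 in replicate 2, a mean of 29.5 ± 8.93 (SD, n = 2). The gene K10D2.5, which runs the other way, starts 40 bp from this summit, and emb-1 also had the summit in its window. The starts of K10D2.5 and prp-19 are 675 bp apart, so which of them the peak belongs to cannot be told apart.

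Of the other 12 PRP genes, prp-40 had the strongest single signal, 29.2 in replicate 2 against 15.1 in replicate 1. The core spliceosome gene prp-8 had 23.1 in replicate 1 and 12.5 in replicate 2. For prp-4 no summit was listed in either replicate, and prp-3, prp-6 and prp-9 each had one in a single replicate. The remaining ones, prp-17, prp-18, prp-21, prp-31, prp-38 and prp-39, had 16.8 to 23.3 in replicate 1 and 7.58 to 22.5 in replicate 2. The prp-40 value in replicate 2 was above that of prp-19 there.

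Of the 8 SR protein genes, rsp-1 (II:11453362-11455864, plus strand), rsp-2 (II:11451441-11452955, minus strand) and rsp-4 (II:5387411-5388836, minus strand) were bound, all on chromosome II. The first 2 point away from each other, with starts 407 bp apart, and share 1 peak, at II:11453081-11453380, which is not 2 independent events. Its signal was 69.5 (rank 921), with 32.8 in replicate 1 and 36.4 in replicate 2, a mean of 34.6 ± 2.57 (SD, n = 2). The summit was 131 bp upstream of rsp-1 and 276 bp upstream of rsp-2, in the intergenic stretch, and rsp-1 has the nearest start.

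The rsp-4 peak, at II:5388213-5388512, lay 473 bp downstream of the 5' end, in an intron of rsp-4. Its signal was 58.3 (rank 1280), with 31.4 in replicate 1 and 25.01 in replicate 2, a mean of 28.2 ± 4.50 (SD, n = 2). The replicate 1 summit stood 507 bp downstream, just past the edge of the window, and its strongest summit inside the window was another one, of 10.8. Of the conservative summits inside the windows, the rsp-4 one was closest to an edge (27 bp). Of those outside, the closest belonged to lsm-7, 588 bp downstream and 88 bp past the edge, and on the upstream side to sap-140, 132 bp past it.

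The other 5 SR genes were not bound, and for rsp-3 and rsp-7 neither replicate listed a summit. Of these unbound genes, rsp-5 and rsp-7 also lie on chromosome II. For rsp-5, rsp-6 and rsp-8 the strongest signals were 20.1 to 21.2 in replicate 1 and 9.84 to 15.6 in replicate 2.

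**Figure D2:**
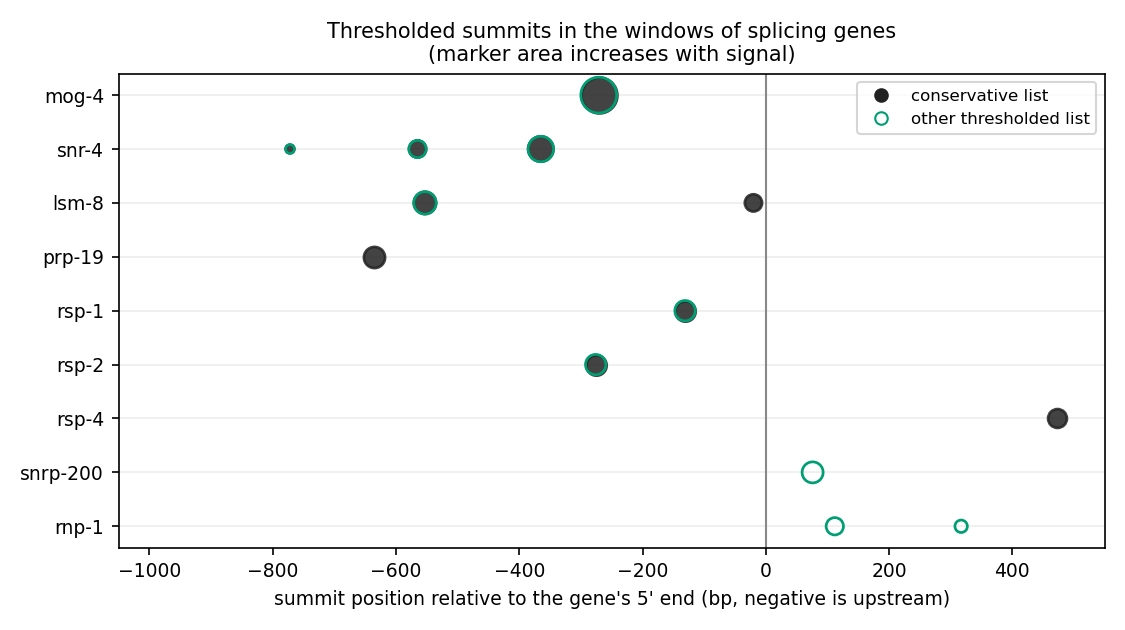
Position of each summit relative to the 5' end of the gene (bp, negative is upstream) for the 9 splicing genes with a summit in either list made from both replicates; filled circles are the conservative list and open green circles the other thresholded list, with larger markers for higher signal. Most summits lie upstream, and those of rsp-4, snrp-200 and rnp-1 lie downstream.

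A second thresholded list of both replicates, of 1826 peaks, also held 7 splicing genes (11.3%), against 4.01% of all protein-coding genes. Of these 7, 5 were shared with the conservative list. In place of prp-19 and rsp-4 the second list held snrp-200 and rnp-1. The helicase of the U5 snRNP, snrp-200, had a peak at II:12736684-12736983, 76 bp downstream of its 5' end in coding sequence, with signal 74.8. It measured 23.9 in replicate 1 and 49.3 in replicate 2, a mean of 36.6 ± 18.0 (SD, n = 2). Replicate 2 was the higher, and the gene passed the threshold in that replicate's own list and not in that of replicate 1. Its −log10 IDR in the ranked list that holds every conservative peak was 1.99, against a threshold of 2, while rsp-4 and prp-19 were just past it at 2.05 and 2.07.

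The second of those, rnp-1, an RNA-binding protein gene, had its main peak at V:12192235-12192534 with signal 47.7, 112 bp downstream in its coding sequence and in the 3'UTR of dpy-30. It measured 33.9 in replicate 1 and 19.2 in replicate 2, a mean of 26.5 ± 10.4 (SD, n = 2), with a −log10 IDR of 1.56. Across the 4 thresholded lists, 9 splicing genes appeared at least once. Only mog-4 and snr-4 appeared in all of them.

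In the lists of single replicates fewer genes were bound. The thresholded list of replicate 1 had 2 splicing genes (3.23%), mog-4 and snr-4, against 2.00% of all protein-coding genes. That of replicate 2 had 3 (4.84%), with snrp-200 added, against 1.85%.

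No gene of the snrp, U2-linked (sap-, sftb-, uaf-) or rnp prefixes was bound in the conservative list, a total of 21 genes. With 3.89% of all protein-coding genes bound, a count of 0 among so few is near the background and is not a result about these classes. The highest of them that no thresholded list held were uaf-1, sap-140 and rnp-4. The large subunit of U2AF, uaf-1, which binds near the 3' splice site, had 27.5 in replicate 1 and 25.1 in replicate 2. The gene sap-140 had 24.1 in replicate 1 and 32.4 in replicate 2, and rnp-4 (Y14 of the exon junction complex) had 20.9 and 26.2 in the same order. These genes each had a summit in both replicates, with replicate 2 the higher in sap-140 and rnp-4.

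For sftb-1, the homologue of human SF3B1, the signals were 18.4 in replicate 1 and 7.10 in replicate 2. The U5 gene snrp-40.1 had 20.5 in replicate 1 and a lower value in replicate 2, and snrp-40.2 had no summit in either. For rnp-7, the U1-70K gene, replicate 1 listed no summit and replicate 2 gave 12.9. The snRNP gene snrp-27 had 16.1 in replicate 1 and 12.9 in replicate 2, and snrp-3 (the C protein of the U1 snRNP) had a summit in replicate 2 alone, of 17.2. Wherever a summit of these genes was listed, its signal was below that of uaf-1 in the same replicate.

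The other U2-linked genes, sftb-2, sftb-6 and uaf-2 (the small subunit of U2AF), had 10.6 to 24.0 in replicate 1 and 11.0 to 14.3 in replicate 2, and sap-49 had 6.20 in replicate 2 alone. Of the other rnp genes, rnp-2, rnp-5, rnp-6 (the homologue of human PUF60) and rnp-8 (a germline partner of a poly(A) polymerase) had 13.6 to 24.3 in replicate 1 and 12.2 to 25.2 in replicate 2. For rnp-3 and rnp-9 only replicate 1 listed a summit. Over the U2-linked genes the medians were 21.2 in replicate 1 and 13.3 in replicate 2, over the rnp genes 19.7 and 17.8, and over the snrp genes 20.5 and 16.1. Replicate 1 had the higher median in these as in all 8 classes, and its whole ranked list also had the higher median, 15.2 against 12.7.

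Ranked summits were common over the whole set. In replicate 1 a summit of the ranked list lay in the window of 51 of the 62 genes (82.3%), against 52.8% of all protein-coding genes, and in replicate 2 of 49 (79.0%), against 54.7%. Both replicates had one for 44 genes (71.0%), against 38.4%. Neither had one for 6 (9.68%), against 30.9%, and these were lsm-4, snrp-40.2, prp-4, rsp-7, mog-1 and rsp-3. In the ranked list that holds every conservative peak, 58 splicing genes (93.5%) had a summit, against 71.0%. Summits in the ranked lists include many peaks that no threshold kept, so they do not show binding by themselves.

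Among genes with a summit, the median strongest signal of the splicing genes was 20.8 in replicate 1, against 17.6 for all protein-coding genes, and 15.6 in replicate 2, against 14.8. The lists themselves had medians of 15.2 and 12.7. At bound genes the median conservative signal was 76.1 for the splicing genes, against 75.7 for all bound protein-coding genes. The strongest summit lay upstream in 6 of the 7 bound splicing genes (85.7%), against 78.0%, with the summit shared by rsp-1 and rsp-2 counted for each. In the ranked lists the splicing genes had 62.7% upstream in replicate 1, against 64.7%, and 59.2% in replicate 2, against 63.7%. The window itself reaches 1000 bp upstream and only 500 bp downstream.

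**Figure D3:**
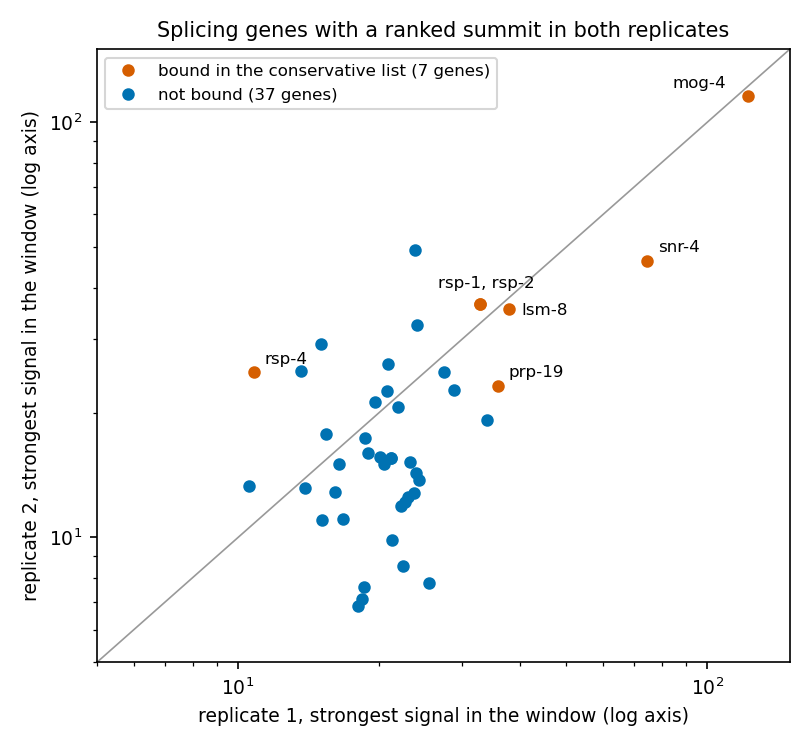
Strongest signal in the window in replicate 1 (x) and replicate 2 (y), both on log axes, for the 44 splicing genes with a ranked summit in each; orange points are the 7 bound genes, blue points the other 37, and the line marks equal values. The bound genes mog-4 and snr-4 lie at the upper right, while the blue points form a cloud in which replicate 1 is mostly the higher.

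Across those 44 genes the log2 signals of the replicates had a Spearman correlation of 0.38 and a Pearson correlation of 0.59, against 0.46 and 0.54 over 7668 protein-coding genes. Over the 37 unbound splicing genes both were 0.14, lower than over all 44. The bound genes left out were picked by peaks called on these same replicates, so a lower value can follow from that choice alone. The values 0.46 and 0.54 include bound genes, so they are no comparison for the unbound splicing genes. These correlations are across genes of the same 2 libraries, and genes are not independent replicates. Replicate 1 was the higher in 32 of the 44 genes (72.7%), against 65.1%. The strongest summits of the replicates lay within 150 bp of each other in 25 of them (56.8%), against 49.0%, so in the others the compared values come from different places in the window.

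The bound share moved with the list, the window and the assignment. In the window from 500 bp upstream to 200 bp downstream, 5 splicing genes (8.06%) were bound, against 2.67% of all protein-coding genes. Here prp-19 and rsp-4 were lost. From 2000 bp upstream to 500 bp downstream there were 9 (14.5%), against 5.41%, with rsp-7 and sap-140 gained. When each summit went to the nearest protein-coding start alone, 5 (8.06%) remained, against 3.22%, without prp-19 and rsp-2. Counting any annotated transcript start gave 8 (12.9%), against 4.28%, with lsm-3 gained. With peaks at or above the list's median signal there were 4 (6.45%), against 2.20%, without rsp-1, rsp-2 and rsp-4.

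**Figure D4:**
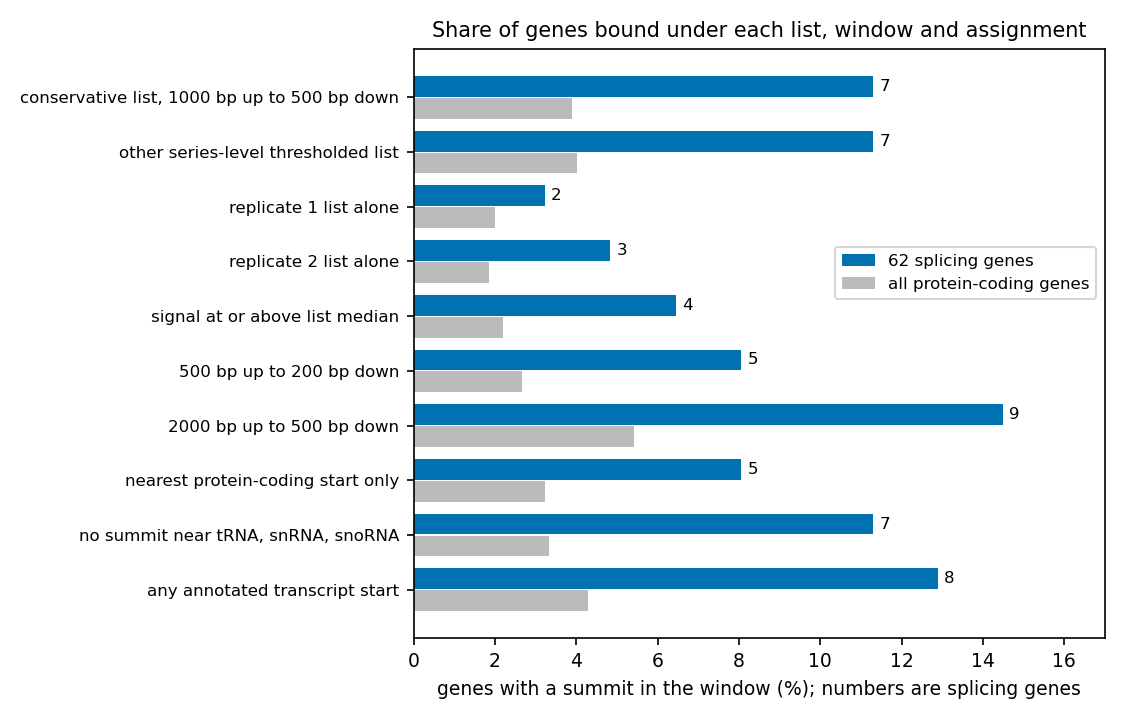
Share of genes with a summit in the window (%) for the 62 splicing genes (blue, with the number of genes) and all 19973 protein-coding genes (grey) under each list, window and assignment. The blue bar runs from 2 genes in the list of replicate 1 to 9 genes in the window reaching 2000 bp upstream.

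Conservative summits were also nearer to the splicing genes in general. The closest one lay a median of 12885 bp from their 5' ends, against 27565 bp for all protein-coding genes, and within 5000 bp for 20 of 62 (32.3%), against 15.4%. For the 55 unbound ones the median was 18072 bp, and 13 (23.6%) had one within 5000 bp. The figures over all protein-coding genes still include bound genes.

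A same-strand gene ending within 500 bp upstream, the arrangement of genes inside operons, was found for 17 of the 62 splicing genes (27.4%), against 18.1% of all protein-coding genes. Of the 7 bound splicing genes lsm-8 had one (14.3%), against 26.5% of all bound protein-coding genes. With so few bound genes this difference is not a result about them. The share is a measure of gene spacing and not an operon annotation. It leaves out a neighbour that overlaps the start, as dpy-30 does at rnp-1.

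Words of 6 bases were searched on both strands in the promoters, from 250 bp upstream to 50 bp downstream. GACGCA shares 5 bases with both AGACGC on one side and, on its other side, with the word ACGCAG, while ACCACT overlaps none of them. The word GACGCA was in 11 of the 62 splicing gene promoters (17.7%), against 8.78% of all promoters, among them those of rsp-1 and rsp-2, which share the stretch. AGACGC was in 3 (4.84%), against 7.87%, ACGCAG in 4 (6.45%), against 8.23%, and ACCACT in 7 (11.3%), against 8.96%. Within 50 bp of the 9 summits, GACGCA was found at the shared rsp-1 and rsp-2 summit alone (11.1%), against 9.13% of all conservative summits, and the other words at none. In the rsp-1 run printed above it reads as its reverse complement.

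Other genes of the pathway were taken from a list of 91 further splicing and RNA-processing symbols, of which 85 matched the annotation. Of these, 14 were bound (16.5%), against 3.89% of all protein-coding genes. By comparison 25 of 78 cytosolic ribosomal protein genes (32.1%) and 10 of 71 aminoacyl-tRNA synthetase and translation factor genes (14.1%) were bound. These shares were not tested against each other.

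The bound pathway genes with direct parts in the spliceosome included ddx-23, a U5 helicase, with a conservative signal of 80.1, and teg-4, an SF3B subunit, with 61.5. Also bound were plrg-1 (73.2), a partner of PRP-19, usp-39 (76.9) of the tri-snRNP, and rsr-1 (101.2), an SR-related protein whose summit lay nearer to the start of sri-5. For ddx-23 the strongest replicate signals were 34.6 in replicate 1 and 37.3 in replicate 2, and for teg-4 38.8 and 29.9 in the same order. All of these values were below that of snr-4 in the same replicate.

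Proteins that bind RNA or act around the spliceosome made up most of the rest. They included hrpr-1 (conservative signal 83.7), rbm-39 (63.9), rbm-5 (63.9), hrpk-1 (57.9) and the cyclophilin cyn-13 (52.9). The hrpr-1 summit lay 990 bp upstream, close to the window's edge. In its window replicate 1 listed no summit, and replicate 2 had 45.5. Also bound were pinn-1 (69.3), pqe-1 (53.0) and hsr-9 (125.5), a homologue of a DNA repair protein and not a splicing factor, whose peak is shared with the ribosomal protein gene rps-19. The list therefore reaches beyond the spliceosome, and its highest signal was at hsr-9.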

How the data were processed

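The 2 samples are biological replicates of tagged young adults. Per the file headers, the peak lists are on ce11 and were ranked or filtered by IDR; no aligner or peak caller is named by the labels or headers. The signal per peak is the authors' deposited value. The −log10 values are the authors' deposited significance of each peak; −log10 IDR of 2 is an IDR of 0.01. Nothing was renormalised, no test was run and no p-value is given, since there is 1 group. Depth is unknown.

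Starts came from Ensembl release 115, with Python 3.11.15, pandas 2.3.3, numpy 2.4.6 and scipy 1.17.1, and sequence from RefSeq WBcel235. The assignment of summits was tested on simulated data. Mean ± SD uses the replicates' ranked summits within 150 bp of a peak. Named genes were every bound gene, those in any thresholded list, the 5 others highest in both replicates by percentile, those without a ranked summit, those at the window's edge and every bound pathway gene, 1 of which is not reported here; further genes illustrating a class were chosen after their values were seen. The genes, lists and 6-base words were chosen with earlier results of these data known. The alternatives were other lists, windows and assignments.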

Additional observations from a re-analysis of the deposited data

How the results depend on the processing

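With 1 replicate's own thresholded list in place of both, 2 to 3 splicing genes (3.23% to 4.84%) were bound. The bound share of all protein-coding genes was then 1.85% to 2.00%. Both mog-4 and snr-4 were bound in each replicate's list. With peaks at or above the median signal of the conservative list there were 4 (6.45%), against 2.20% of all protein-coding genes. These were lsm-8, mog-4, prp-19 and snr-4. The other list, the windows, the nearest start, any transcript start and leaving out summits near tRNA, snRNA or snoRNA genes stayed within 1.5 times of 7. Of 52 signals of named genes under other windows, 46 moved by less than the spread between replicates, 3 were higher and 3 lower. The 3 higher were in the wider window and the 3 lower in the narrower one. These directions were fixed beforehand, since the strongest signal cannot fall in a wider window or rise in a narrower one. A further 4 values, those of prp-19 and rsp-4 in both replicates, could not be compared because no summit lay in the narrower window. No paired analysis was possible because the samples form 1 group. Depth and a background from untagged animals are not known here, so weak peaks at the unbound genes cannot be read as absence of binding.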

Other observations

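By chromosome, 4 of the 16 splicing genes on II were bound against 138 of the 3449 protein-coding genes there, and 2 of these 4 share a peak. None of the 11 on chromosome I and none of the 2 on X were bound, against 5.18% and 3.84% of all protein-coding genes on those chromosomes. On III, IV and V there was 1 bound splicing gene each, of 16, 10 and 7, against 5.08%, 3.78% and 2.54% of all protein-coding genes on those chromosomes. Among so few genes per chromosome, such counts are not a result about the chromosomes. No peak at a splicing gene was past the IDR threshold in a ranked list and missing from the matching thresholded list, while 112 peaks of both replicates together, 81 of replicate 1 and 66 of replicate 2 were.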
